A study of Mus musculus with 18 samples.

Results

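The genes described are 40 mouse genes of the fibroblast extracellular matrix and of the contractile machinery, chosen by name as a marker set for the cells that presented antigen to T cells in this series. Of these 40 genes, 34 had a row in the table of normalized values, which holds 15698 named features. Col3a1, Col5a2, Tagln, Myl9, Fkbp10 and Mmp2 were not analysed here. The 34 genes comprise 6 collagen chains, 7 enzymes and chaperones of collagen folding and crosslinking, 7 matrix glycoproteins, 6 contractile proteins, 3 inhibitors of matrix proteases, 2 caveolins and 3 other secreted proteins.

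The series varied the strength of antigen receptor stimulation during T helper differentiation. Mouse naive CD4+ T cells carrying the transgenic 5C.C7 receptor were taken from spleen and lymph node, and P13.9 fibroblasts presented the peptide pPCC to them over 4 days, at 0.01, 0.1, 1.0 or 10 µM. The activated groups therefore shared the receptor, the presenting line and the day, and differed in the peptide dose. P13.9 cells alone and naive CD4+ T cells were the other groups, and each of the 6 groups had 3 libraries. The labels do not say whether P13.9 cells were removed before RNA extraction, nor whether replicate libraries represent different mice or cultures, so p-values measure only the spread between these libraries. The age and sex of the animals, the loading time of the peptide and whether P13.9 is 1 clone are unstated in the labels.

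Fibroblasts secrete collagen, fibronectin and related glycoproteins, which assemble outside the cell into a network that is crosslinked by lysyl oxidases and remodelled by proteases under the control of TIMP inhibitors. Collagen chains are hydroxylated and folded in the endoplasmic reticulum by prolyl and lysyl hydroxylases, isomerases and the chaperone HSP47 before secretion. Contractile proteins of the actin filament, such as tropomyosins, caldesmon and calponins, take part in pulling on this network, and caveolins shape the membrane pits that are abundant in fibroblasts. Resting and activated T cells are not known as a main source of interstitial collagen, whereas some actin-binding and protease-inhibitor genes are used by many cell types.

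Promoters are shown for 2 pairs of related genes in the set whose values took different courses across the groups, the protease inhibitors Timp1 and Timp2 and the calponins Cnn2 and Cnn3. Each sequence is the 250 bases before the annotated start, from the RefSeq annotation of GRCm38.p6, written 5′ to 3′ on the gene's own strand. Capitals mark matches to the motifs searched, on either strand.
Timp1, chrX:20869916-20870165, plus strand: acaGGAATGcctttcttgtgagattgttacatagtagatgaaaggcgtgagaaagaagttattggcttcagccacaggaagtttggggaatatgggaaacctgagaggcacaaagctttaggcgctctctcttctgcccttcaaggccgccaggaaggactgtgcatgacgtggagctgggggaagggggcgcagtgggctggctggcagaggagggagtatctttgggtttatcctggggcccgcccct
Timp2, chr11:118355412-118355661, minus strand: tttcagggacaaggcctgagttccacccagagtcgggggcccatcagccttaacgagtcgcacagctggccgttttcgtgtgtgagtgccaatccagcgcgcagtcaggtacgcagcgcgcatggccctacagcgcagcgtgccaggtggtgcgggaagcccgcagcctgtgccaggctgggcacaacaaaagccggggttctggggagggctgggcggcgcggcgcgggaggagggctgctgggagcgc
Cnn2, chr10:79988350-79988599, plus strand: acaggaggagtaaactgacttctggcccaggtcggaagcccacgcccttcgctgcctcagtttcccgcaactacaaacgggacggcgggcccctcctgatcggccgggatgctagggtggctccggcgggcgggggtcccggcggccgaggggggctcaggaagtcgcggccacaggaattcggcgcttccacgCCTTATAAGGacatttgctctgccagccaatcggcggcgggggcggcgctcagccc
Cnn3, chr3:121426291-121426540, plus strand: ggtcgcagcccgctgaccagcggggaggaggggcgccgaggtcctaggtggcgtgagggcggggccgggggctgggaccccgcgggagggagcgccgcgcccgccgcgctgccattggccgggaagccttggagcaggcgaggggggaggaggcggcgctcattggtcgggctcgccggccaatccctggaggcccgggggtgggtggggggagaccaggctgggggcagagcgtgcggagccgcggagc

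The motifs searched were GGAATG, which TEAD factors are known to bind, TGANTCA, which AP-1 factors are known to bind, and the CArG box, the element of serum response factor in many contractile genes. A GGAATG match began 247 bases before the start of Timp1. In Cnn2 a CArG box began 56 bases before the start, and since this box reads alike on both strands it was found on both. The windows of Timp2 and Cnn3 held none of the 3 motifs. Among 32851 promoter windows of the same length, GGAATG was found in 12.6%, TGANTCA in 6.75% and the CArG box in 1.47%. Windows existed for 26 of the 34 genes, 30 windows in all. GGAATG was found in 5 of them, those of Timp1, Cald1, Tpm1, Gdf15 and Acta2, TGANTCA in 3, those of Cald1, Cav2 and Col6a1, and the CArG box in that of Cnn2 alone. These matches describe the letters of the windows only.

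All values below are the authors' normalized values, which remove library size but not transcript length, so levels are compared between groups and not between genes. Activated libraries held 156941 to 733009 reads of named genes and P13.9 libraries 201627 to 352001, against only 27789 to 97757 for naive cells. A single read was worth 0.167 to 0.872 when cells were activated, 0.442 to 0.767 for P13.9 and 2.17 to 6.55 for naive cells, which means that a naive value of 0 or of a few units rests on 0 to 2 reads. The 12 T cell markers summed to 4.42 to 10.7 in P13.9, where Cd3e and Cd5 had no read. Their sums were 218 to 246 at 0.01 µM, 347 to 396 with 0.1 µM peptide, 324 to 397 with 1.0 µM and 376 to 400 at 10 µM, against 353.9 to 454.8 in naive cells. The 0.01 µM libraries thus lay below all other T cell libraries in T cell marker sum and, as described below, above all of them in the median ratio of the matrix and contractile genes to P13.9. In these bulk libraries, fewer cells of a type and less RNA per cell cannot be told apart, nor can RNA of a gene from P13.9 cells and from T cells.

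P13.9 cells, labelled as fibroblasts, had reads of all 34 genes, but at very unequal numbers. Matrix glycoproteins, protease inhibitors, caveolins and secreted factors were well represented, with means of 277 ± 33.7 for Fn1, 198 ± 4.76 for Gdf15, 130.1 ± 18.5 for Timp2 and 123 ± 10.8 for Sparc (SD, n = 3). By contrast Acta2, the smooth muscle actin that marks myofibroblasts, had 1 read and Col1a1, the major chain of type I collagen, had 2 reads over all 3 P13.9 libraries, while its partner chain Col1a2 had 263 reads. Timp3 had 6 reads, Lox 10, Fstl1 15 and Fbn1 16. The fibroblast markers Vim and S100a4 had means of 295.8 ± 21.2 and 209 ± 34.9 in P13.9. Vim does not tell the cells apart, since its mean was 238 to 304 in the dose groups, and Twist1 of the same marker list had no P13.9 read. P4ha2, Timp3 and Fstl1 had lower means in P13.9 than in naive cells, but these naive means rest on 1, 3 and 4 reads. By reads, the ratio of P13.9 to naive cells was 1.55 for P4ha2, 0.344 for Timp3 and 0.645 for Fstl1. Their exact counting intervals were 0.214 to 67.8, 0.0734 to 2.13 and 0.205 to 2.67, so no direction is shown. The set was chosen as presenting-cell markers with earlier results of these data known. Its levels in P13.9 therefore do not test the fibroblast label, and Acta2 and Col1a1 were close to absent there.

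Relative to naive T cells, 24 of the 25 genes tested were higher in P13.9 and none was lower, where 29.9% of all 8179 genes tested were called higher (limma, adjusted p below 0.05). Their median log2 difference was 3.38, against 0.16 over all genes tested. Fits used log2(value + 1) and kept a gene when 3 or more libraries reached a value of 5, and 12 of the 25 reached this through P13.9, which favours a difference. The 9 genes that were not tested were Col1a1, Col4a2, Col5a1, Acta2, Timp3, Lox, Plod2, Fstl1 and Fbn1. P4ha2, a catalytic subunit of collagen prolyl hydroxylase, was the tested gene without a call, with 1.83 ± 1.20 in P13.9 and 2.18 ± 3.78 in naive cells (adjusted p = 0.567). In naive libraries 12 of the 34 genes had no read at all. Gdf15, with 1006 reads in P13.9 and none in naive cells, was at least 57.7-fold higher in P13.9, taking 3 reads over the group as the naive floor. Angptl2 was at least 12.4-fold, Pla1a at least 7.05-fold and Fkbp11 at least 6.42-fold higher in P13.9 by the same bound.

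The central description is the value of each gene as a percentage of its P13.9 mean, computed for the 26 genes whose mean in P13.9 was 5 or more. The median over these genes was 25.2% ± 3.73 at 0.01 µM, 9.75% ± 3.24 with 0.1 µM peptide, 5.66% ± 2.08 with 1.0 µM and 2.42% ± 0.412 at 10 µM (SD of the 3 library medians). In naive cells it was 0.55% ± 0.952. As a ratio of sums over the same genes it was 9.56% at 1.0 µM, 6.32% at 10 µM and 7.78% in naive cells, and over the 13 genes with a P13.9 mean of 20 or more it was 2.02% at 10 µM and 2.51% in naive cells. Over the 7 genes without a naive read it was 0.866% at 10 µM. The order of 10 µM and naive cells thus turned with the summary chosen. By library the medians were 22.7%, 29.5% and 23.3% at 0.01 µM, 6.34%, 10.1% and 12.8% with 0.1 µM peptide, 7.55%, 3.44% and 5.98% with 1.0 µM, and 2.10%, 2.88% and 2.26% at 10 µM. The 3 libraries at 0.01 µM lay above all other T cell libraries. Those at 0.1 and 1.0 µM overlapped, and those at 10 µM lay below all other activated libraries. Over the 5760 named features that reached this mean, the same median was 70.4%, 60.6%, 58.8% and 58.4% in order of rising dose, and 65.6% in naive cells. The 34 genes together made up 0.0636% to 0.0818% of all named signal at 10 µM and 0.238% to 0.303% at 0.01 µM, against 0.772% to 0.877% in P13.9 and 0.0501% to 0.0601% in naive cells.

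**Figure D1:**
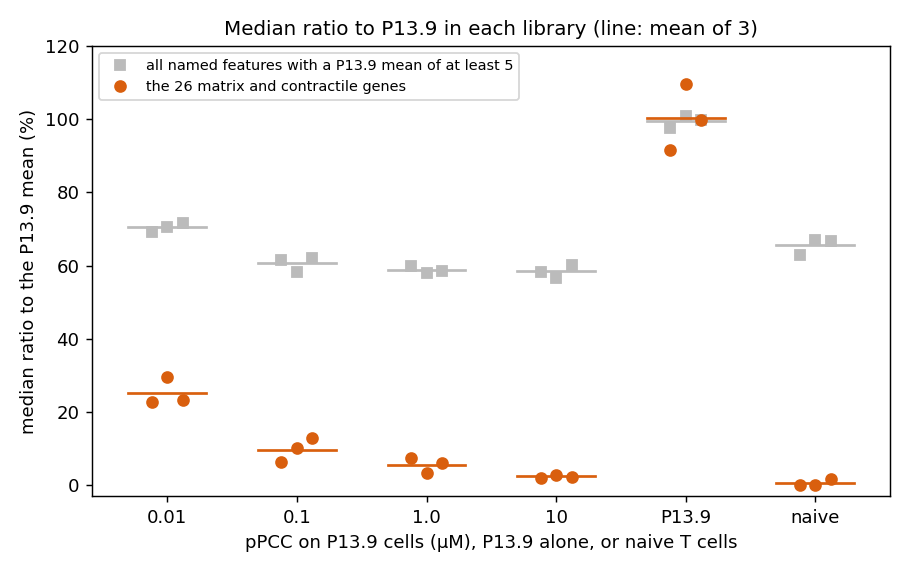
Median ratio to the P13.9 mean, in percent, for each library (points) and the mean of 3 libraries (lines), by peptide dose, in P13.9 and in naive cells. The 26 matrix and contractile genes (circles) average 2.42% at 10 µM and 25.2% at 0.01 µM, while the median of all named features past the same P13.9 mean (squares) lies between 58.4% and 70.4% over the doses.

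The order of the genes within a library was also described. Pearson's r of log2(value + 1) with the P13.9 mean, across the 26 genes, was 0.81 to 0.84 at 0.01 µM, 0.55 to 0.69 with 0.1 µM peptide, 0.51 to 0.70 with 1.0 µM and 0.22 to 0.47 at 10 µM. It was 0.28 to 0.40 in naive libraries. These are correlations across genes that share a library, given without a test, and naive libraries rest on few reads. All 3 libraries at 0.01 µM had a higher r than any other T cell library.

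The genes did not keep 1 common ratio. At 0.01 µM the ratio to P13.9 ran from 11.9% ± 3.37 for Angptl2 to 130.4% ± 23.3 for Timp1 (SD, n = 3), and the middle 50% of genes lay between 18.1% and 43.9%. Of the 26 genes, 25 were below 50% of P13.9 at 10 µM and 21 at 0.01 µM, the exception at 10 µM being Cnn2. Of the 5760 named features with a P13.9 mean of 5 or more, 43.3% were below 50% at 10 µM and 30.6% at 0.01 µM. Below 10% of P13.9 there were 0 genes with 0.01 µM peptide, 13 with 0.1 µM, 19 with 1.0 µM and 20 with 10 µM, against 1.23%, 9.86%, 11.5% and 14.0% of all named features with that P13.9 mean. Just inside the limit of 5 for this ratio were Plod2, Col4a2 and Col5a1, with P13.9 means of 5.13, 5.28 and 5.71. Just outside it was Thbs1, with 4.67.

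**Figure D2:**
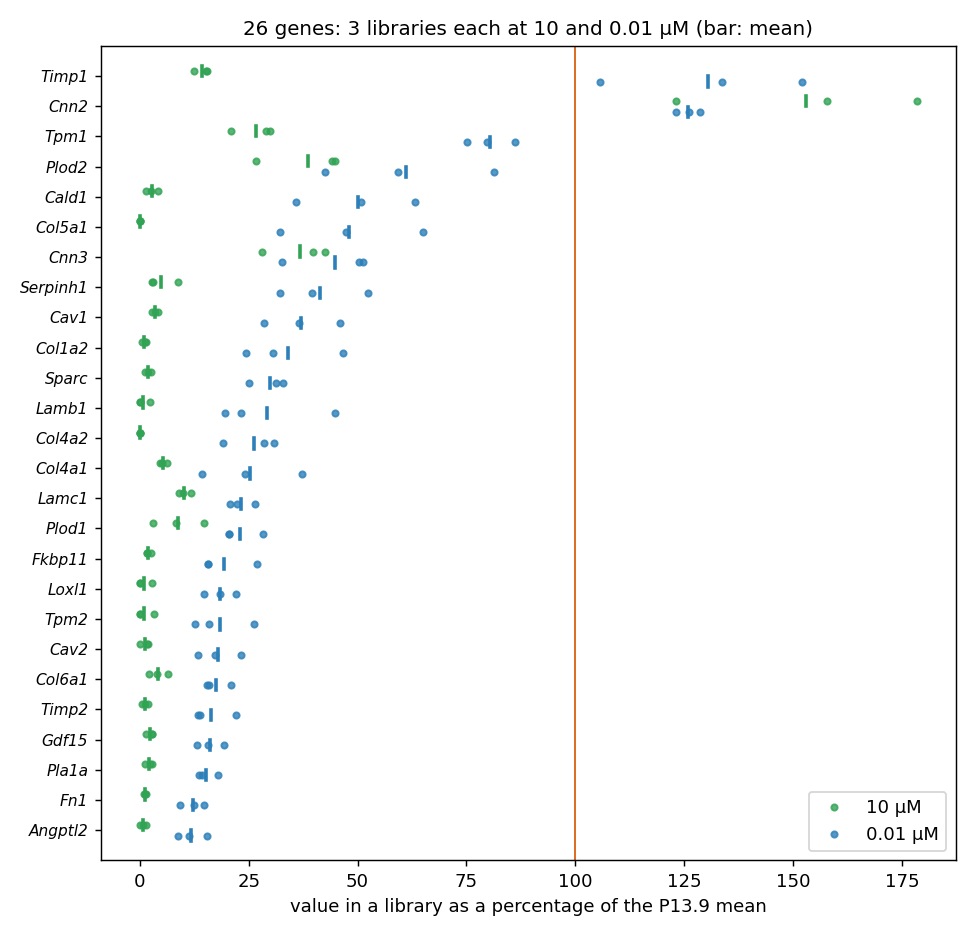
Value in each library as a percentage of the P13.9 mean for the 26 genes, with 10 µM above 0.01 µM in each row (points are libraries, bars are means of 3, and the vertical line is the P13.9 mean). Timp1 and Cnn2 lie above 100% at 0.01 µM and Angptl2 is lowest at 11.9%, and Cnn2 is the only gene of the 26 above 100% at 10 µM.

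Collagen means in activated cells, apart from that of Col1a1 at 0.01 µM, were below those of P13.9 and came down to a few reads at the higher doses. Col1a2 had 12.6, 15.8 and 24.0 with 0.01 µM peptide, 2.74, 5.23 and 7.46 with 0.1 µM, 2.62, 1.67 and 1.54 with 1.0 µM and 0.282, 0.685 and 0.575 with 10 µM, against 47.6, 52.1 and 54.4 in P13.9 and 0, 3.90 and 4.33 in naive cells. Col1a2 encodes the α2 chain of type I collagen (chromosome 6, 4505618 to 4541543, in GRCm38.p6 as for all positions given). At every dose its libraries lay below P13.9, and those at 10 µM, with 6 reads in all, lay below the naive mean of 2.75, which rests on 3 reads. Col4a1 had 2.34, 3.94 and 6.07 with 0.01 µM peptide, 1.22, 1.74 and 1.24 with 0.1 µM, 1.05, 0 and 0 with 1.0 µM and 0.847, 1.03 and 0.766 with 10 µM, against 17.6, 19.4 and 11.9 in P13.9 and 0, 3.90 and 2.17 in naive cells. Col4a1 encodes a basement membrane collagen chain (chromosome 8, 11198423 to 11312889), and its 10 and 1.0 µM libraries overlapped, with 10 and 2 reads in all. The other network and fibril chains had fewer reads. Col6a1, of microfibrillar collagen VI, had 4 reads at 10 µM and 21 at 0.01 µM, against 45 in P13.9. Col4a2 and Col5a1 had no read at 10 µM, against 19 and 35 reads at 0.01 µM, which makes them at least 5.58-fold and 10.3-fold lower at 10 than at 0.01 µM over a floor of 3 reads. Col1a1 had 1 read at 10 µM and 13 at 0.01 µM, against 2 in P13.9, and its ratio of 0.01 µM to P13.9 of 2.48 had an exact 95% counting interval of 0.562 to 22.7. Col1a1 was thus too sparse for a comparison, unlike Col1a2.

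Genes of collagen folding and crosslinking did not move as 1 group. Serpinh1 had 16.2, 19.9 and 26.3 with 0.01 µM peptide, 5.49, 4.36 and 9.53 with 0.1 µM, 5.25, 1.67 and 3.38 with 1.0 µM and 1.41, 4.45 and 1.53 with 10 µM, against 51.4, 54.8 and 44.6 in P13.9 and 0, 3.90 and 0 in naive cells. Serpinh1 encodes HSP47, the collagen chaperone (chromosome 7, 99345375 to 99353239), and it lay at 41.4% of P13.9 at 0.01 µM. Fkbp11 had 3.35, 5.80 and 3.37 with 0.01 µM peptide, 1.22, 0.872 and 2.90 with 0.1 µM, 1.57, 1.00 and 1.23 with 1.0 µM and 0.565, 0.343 and 0.383 with 10 µM, against 18.4, 21.4 and 24.7 in P13.9 and 0, 0 and 0 in naive cells. Fkbp11, an isomerase of the endoplasmic reticulum (chromosome 15, 98724368 to 98728198), was at 19.4% of P13.9 at 0.01 µM and had no naive read. P4ha2 had 3.18, 4.64 and 1.69 with 0.01 µM peptide, 11.3, 7.84 and 5.80 with 0.1 µM, 5.25, 11.7 and 11.99 with 1.0 µM and 5.93, 10.6 and 8.62 with 10 µM, against 3.07, 0.669 and 1.77 in P13.9 and 6.55, 0 and 0 in naive cells. P4ha2 (chromosome 11, 54100924 to 54131668) went the other way, with 97 reads at 10 µM against 9 in P13.9, and the libraries at 0.1, 1.0 and 10 µM lay above all P13.9 libraries. Plod1, a lysyl hydroxylase, was at 8.69% of P13.9 at 10 µM and 23.1% at 0.01 µM. Plod2, its paralogue, was at 38.5% at 10 µM and 61.0% at 0.01 µM, with 19 to 40 reads in each dose group. The lysyl oxidases were sparse, Loxl1 with 2 reads at 10 µM and 34 at 0.01 µM, and Lox with 2 at 10 µM and 14 at 0.01 µM.

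The matrix glycoproteins Fn1 and Sparc had 1400 and 611 reads in P13.9. Fn1 had 25.6, 34.3 and 41.2 with 0.01 µM peptide, 7.93, 15.7 and 12.4 with 0.1 µM, 11.5, 5.68 and 4.61 with 1.0 µM and 2.54, 4.11 and 3.45 with 10 µM, against 252, 316 and 265 in P13.9 and 0, 11.7 and 12.99 in naive cells. Fn1 encodes fibronectin (chromosome 1, 71585473 to 71653280), and its ratio of 12.1% at 0.01 µM was among the 3 lowest of the 26 genes. Sparc had 30.8, 38.5 and 40.5 with 0.01 µM peptide, 6.71, 6.97 and 8.70 with 0.1 µM, 7.87, 7.35 and 5.23 with 1.0 µM and 1.41, 3.08 and 2.30 with 10 µM, against 132, 126 and 111 in P13.9 and 6.55, 3.90 and 6.50 in naive cells. Sparc, a collagen-binding matricellular protein (chromosome 11, 55394159 to 55420080), kept 29.8% at 0.01 µM, and its 4 dose groups did not overlap except 0.1 with 1.0 µM. The laminin chains Lamb1 and Lamc1 had 4.24 and 2.64 at 0.01 µM, against 14.5 and 11.4 in P13.9. At 10 µM Lamb1 had 1 read and Lamc1 had 14. Thbs1, thrombospondin-1, had 0.437 ± 0.531 at 10 µM and 5.65 ± 0.998 at 0.01 µM, against 4.67 ± 1.99 in P13.9. Its 4 reads at 10 µM and 72 at 0.01 µM give a ratio of 0.0630 of 10 to 0.01 µM, with an exact 95% counting interval of 0.0167 to 0.168. Fbn1, a microfibril component, and Fstl1, a follistatin-related secreted protein, had 0 to 16 reads in every group.

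Contractile genes divided among themselves. Cald1 had 23.6, 33.4 and 41.5 with 0.01 µM peptide, 2.74, 6.10 and 9.53 with 0.1 µM, 8.92, 4.68 and 4.92 with 1.0 µM and 1.69, 2.74 and 0.958 with 10 µM, against 61.4, 72.9 and 62.7 in P13.9 and 13.1, 0 and 2.17 in naive cells. Cald1 encodes caldesmon (chromosome 6, 34598495 to 34775469) and ran from 36.0% to 63.2% of the P13.9 mean over the 0.01 µM libraries, with a mean of 2.74% at 10 µM. Tpm1 had 18.4, 21.1 and 19.6 with 0.01 µM peptide, 8.23, 3.49 and 8.70 with 0.1 µM, 8.92, 7.35 and 6.76 with 1.0 µM and 7.34, 5.14 and 7.09 with 10 µM, against 26.1, 22.7 and 24.7 in P13.9 and 19.7, 15.6 and 8.66 in naive cells. Tpm1, a tropomyosin (chromosome 9, 67022590 to 67049672), lay at 80.3% of P13.9 at 0.01 µM, where it did not overlap with the other doses, and at 26.6% to 31.3% from 0.1 to 10 µM. In naive cells it lay at 59.7% ± 22.7 of P13.9, above the 3 higher doses in mean. Cnn2 had 33.2, 33.8 and 32.4 with 0.01 µM peptide, 43.9, 56.7 and 47.2 with 0.1 µM, 68.2, 32.8 and 44.0 with 1.0 µM and 41.5, 46.9 and 32.4 with 10 µM, against 29.9, 23.4 and 25.6 in P13.9 and 6.55, 27.3 and 12.99 in naive cells. Cnn2 encodes a calponin (chromosome 10, 79988600 to 79995400), an actin-binding protein, and all of its dose libraries lay above all P13.9 libraries, although no dose passed the test against P13.9. Its adjusted p was 0.553 with 0.01 µM peptide, 0.0533 with 0.1 µM, 0.0800 with 1.0 µM and 0.193 with 10 µM, and it was called higher in 7, 8 and 5 of 15 alternatives at 0.1, 1.0 and 10 µM, edgeR and DESeq2 included. Its paralogue Cnn3 (chromosome 3, 121426541 to 121458205) lay at 36.8% of P13.9 at 10 µM, from 52 reads, and at 44.8% at 0.01 µM, from 72 reads. Tpm2 had 1 read at 10 µM and 25 at 0.01 µM, against 52 in P13.9, and Acta2 had 1 to 5 reads in P13.9 and each dose.

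**Figure D3:**
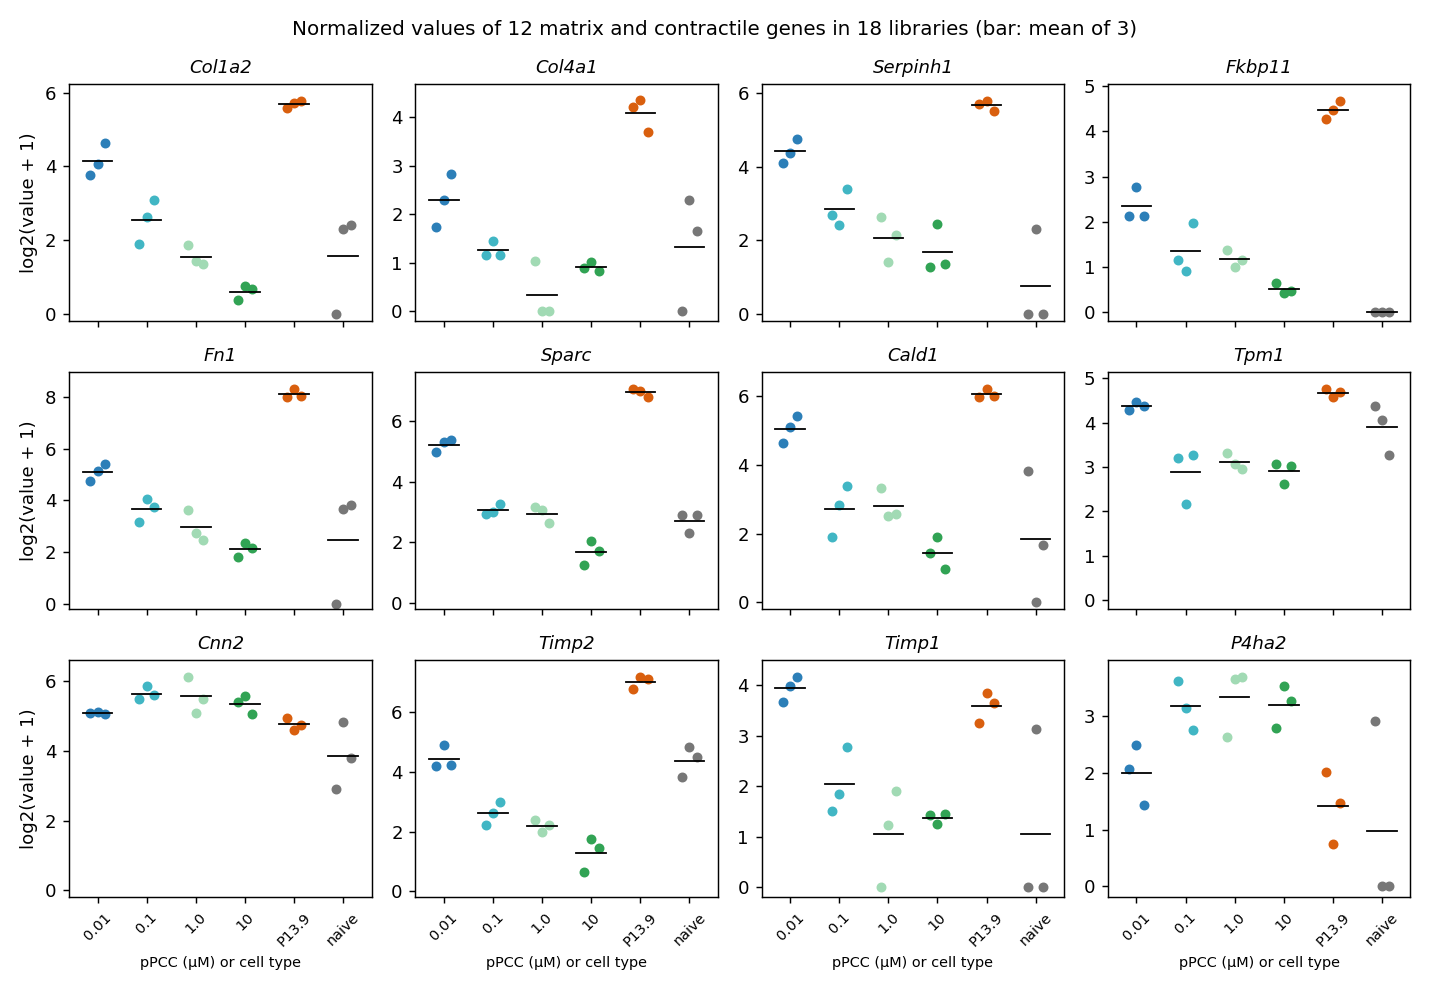
Normalized values on the log2(value + 1) scale of 12 genes in the 18 libraries, by peptide dose in µM, in P13.9 and in naive cells (points are libraries, bars are means of 3). The means of Col1a2, Fn1, Sparc and Timp2 step down over the doses, whereas Cnn2 and P4ha2 have higher means at each dose than in P13.9.

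The TIMP inhibitors of matrix metalloproteinases had unlike ratios to P13.9 at 0.01 µM. Timp2 had 17.4, 28.7 and 17.9 with 0.01 µM peptide, 3.66, 5.23 and 7.04 with 0.1 µM, 4.20, 3.01 and 3.69 with 1.0 µM and 0.565, 2.40 and 1.72 with 10 µM, against 109, 143 and 138 in P13.9 and 13.1, 27.3 and 21.7 in naive cells. Timp2 (chromosome 11, 118301061 to 118355411) lay at 16.4% of P13.9 at 0.01 µM, and its naive libraries overlapped with those at 0.01 µM. Timp1 had 11.7, 14.8 and 16.9 with 0.01 µM peptide, 1.83, 2.61 and 5.80 with 0.1 µM, 0, 1.34 and 2.77 with 1.0 µM and 1.69, 1.37 and 1.72 with 10 µM, against 8.44, 13.4 and 11.5 in P13.9 and 0, 7.81 and 0 in naive cells. Timp1 (chromosome X, 20870166 to 20874737) lay at 14.4% of P13.9 at 10 µM and at 130.4% at 0.01 µM, where its libraries overlapped with those of P13.9. The ratio of the Timp1 value to the Timp2 value within a library was 0.673, 0.516 and 0.943 at 0.01 µM, against 0.0775, 0.0935 and 0.0831 in P13.9. This pair was chosen after its values were seen, and the ratio compares the groups, not the amounts of the 2 transcripts. The libraries of both groups did not overlap in it. Timp3 had 3 to 6 reads in every group.

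Both caveolins were below P13.9 in every activated library. Cav1 had 22.4, 28.7 and 36.1 with 0.01 µM peptide, 5.18, 13.95 and 9.53 with 0.1 µM, 14.7, 4.35 and 5.23 with 1.0 µM and 2.26, 2.74 and 3.26 with 10 µM, against 71.3, 86.9 and 77.8 in P13.9 and 6.55, 3.90 and 0 in naive cells. Cav1 encodes the main coat protein of caveolae (chromosome 6, 17306335 to 17341328), and the 1.0 µM libraries were spread from 4.35 to 14.7. Cav2 had 3.01, 2.32 and 4.05 with 0.01 µM peptide, 0, 1.74 and 0 with 0.1 µM, 1.05, 0.669 and 0.615 with 1.0 µM and 0.282, 0.343 and 0 with 10 µM, against 17.6, 22.1 and 12.4 in P13.9 and 0, 0 and 2.17 in naive cells. Cav2, the partner of caveolin-1 from the neighbouring gene (chromosome 6, 17281185 to 17289130), lay at 18.01% of P13.9 at 0.01 µM, and 2 reads remained at 10 µM.

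The other secreted proteins had 3 of the 4 lowest ratios at 0.01 µM, the fourth being that of Fn1. Gdf15 had 25.96, 38.3 and 31.04 with 0.01 µM peptide, 12.8, 10.5 and 17.8 with 0.1 µM, 14.7, 7.02 and 7.99 with 1.0 µM and 2.82, 5.48 and 5.75 with 10 µM, against 196, 195 and 203 in P13.9 and 0, 0 and 0 in naive cells. Gdf15, a stress-induced cytokine of the TGF-β superfamily (chromosome 8, 70629393 to 70632470), lay at 2.37% of P13.9 at 10 µM, where 56 reads remained, and at 16.1% at 0.01 µM. Angptl2 had 4.69, 6.49 and 3.71 with 0.01 µM peptide, 0.610, 2.61 and 2.90 with 0.1 µM, 3.67, 0.669 and 0.922 with 1.0 µM and 0, 0.343 and 0.575 with 10 µM, against 29.9, 51.5 and 44.2 in P13.9 and 0, 0 and 0 in naive cells. Angptl2, an angiopoietin-like glycoprotein (chromosome 2, 33215951 to 33247725), had the lowest ratio of the 26 genes at 0.01 µM. Pla1a had 3.52, 4.405 and 3.37 with 0.01 µM peptide, 1.52, 0.872 and 0.414 with 0.1 µM, 1.57, 0.334 and 1.54 with 1.0 µM and 0.282, 0.685 and 0.575 with 10 µM, against 20.7, 31.4 and 21.7 in P13.9 and 0, 0 and 0 in naive cells. Pla1a, a secreted phospholipase that acts on phosphatidylserine (chromosome 16, 38396117 to 38433191), lay at 2.09% of P13.9 at 10 µM, from 6 reads, and at 15.3% at 0.01 µM.

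Tests against P13.9 followed these levels, and all 4 use the same P13.9 libraries. Of the 25 genes tested, 12 passed the filter through P13.9, which favours a lower call at every dose. They were Cav2, Col4a1, Col6a1, Tpm2, Thbs1, Loxl1, Plod1, Fkbp11, Lamb1, Lamc1, Angptl2 and Pla1a. At 0.01 µM, 16 of 25 genes tested were lower than in P13.9 and 0 were higher, where 14.3% of all genes tested were called lower. At 0.1 µM 22 were lower, with 24.4% of all genes, and at 1.0 µM 23 were lower, with 24.5% of all genes. At 10 µM 22 were lower, with 26.4% of all genes. P4ha2 was the 1 gene called higher at 0.1, 1.0 and 10 µM, where 15%, 14.5% and 15.6% of all genes tested were called higher. P4ha2 reached the filter value of 5 in no P13.9 library and passed mainly through these doses, which favours a higher call. Its call was lost in 5, 4 and 5 of 15 alternatives (highest adjusted p = 0.140, 0.101 and 0.129), among them those without P13.9 replicate 2 or 3, without 0.1 µM replicate A or B, without 1.0 µM replicate B or C and without 10 µM replicate B or C. The median log2 difference of the 25 genes was -1.77 at 0.01 µM, -3.003 with 0.1 µM peptide, -3.30 with 1.0 µM and -3.79 at 10 µM, against -0.13, -0.22, -0.23 and -0.22 over all genes tested. Without the filter on low values, 27 of 34 genes were lower at 10 µM, with 19.2% of all genes, and 16 of 34 at 0.01 µM, with 9.25% of all genes. At 0.01 µM, array weights and edgeR each called 20 of 25 genes lower and 1 higher. Of all 8179 genes they called 2347 and 1716 lower and 1653 and 1822 higher.

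The largest differences between 0.01 µM and P13.9 by log2 change were those of Fn1 at -3.02 ± 0.67 (adjusted p = 0.00252), Angptl2 at -2.84 ± 0.43 (adjusted p = 8.34e-05) and Gdf15 at -2.62 ± 0.30 (adjusted p = 4.35e-06), with SE from the fit and n = 3 per group. The 9 tested genes without a call at 0.01 µM were Timp1, Cnn2, Cnn3, Cald1, Tpm1, Thbs1, P4ha2, Cav1 and Serpinh1. Cav1 at -1.43 (adjusted p = 0.0752) and Serpinh1 at -1.25 (adjusted p = 0.101) were nearest to the threshold, whereas Timp1 had 0.36 ± 0.66 and Cnn2 had 0.33 ± 0.35. Of the 5 contractile genes tested, Tpm2 alone was lower at 0.01 µM. When any 1 P13.9 library was left out, 19 or 20 of the 34 genes passed the filter and 8 were called.

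Between 10 and 0.01 µM, 10 of 13 genes tested were lower at 10 µM and 0 were higher, where 6.25% of all 7264 genes tested were called lower. The 10 were Sparc, Timp2, Gdf15, Col1a2, Cald1, Cav1, Serpinh1, Tpm1, Fn1 and Timp1. This fit held the 15 T cell libraries and used the same filter. Col1a2, Cnn3 and Timp1 passed it through 0.01 µM, which favours a lower call at the higher doses. The smallest adjusted p-values were those of Sparc, with a log2 change of -3.55 ± 0.32 (adjusted p = 1.47e-05), Timp2 with -3.16 ± 0.39 (adjusted p = 0.000178), Gdf15 with -2.55 ± 0.37 (adjusted p = 0.000504) and Col1a2 with -3.57 ± 0.55 (adjusted p = 0.000884). Each was lower in 3 of 3 libraries at 10 µM than in any at 0.01 µM. Cnn2 with 0.26 ± 0.37, Cnn3 with -0.23 ± 0.67 and P4ha2 with 1.20 ± 0.65 were not called. The median log2 change was -2.74 over the 13 genes and -0.03 over all genes tested. Over the same libraries the 12 T cell markers summed to 376 to 400 at 10 µM and 218 to 246 at 0.01 µM, while the 7 myeloid markers summed to 0.766 to 1.98 at 10 µM and 5.36 to 9.11 at 0.01 µM, with 1 of 3 tested lower. At 0.01 µM the macrophage marker Adgre1 had 11 reads and the platelet gene Pf4 had 13, against none of either in P13.9. Cd68 and Itga2b of the same myeloid and platelet lists went the other way. Cd68 averaged 2.09 at 0.01 µM and 4.06 in P13.9, and Itga2b averaged 0.224 at 0.01 µM and 0.959 in P13.9. The part of these markers in the changes was not tested. Without the filter 19 of 34 were lower, with 4.73% of all genes, and 5 were called lower without 0.01 µM replicate C and 6 without 10 µM replicate A. In 26 of the 34 genes every 10 µM library lay below every 0.01 µM library, as in 24.3% of the 15484 features with a read in either group, and P4ha2 alone had every 10 µM library above.

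**Figure D4:**
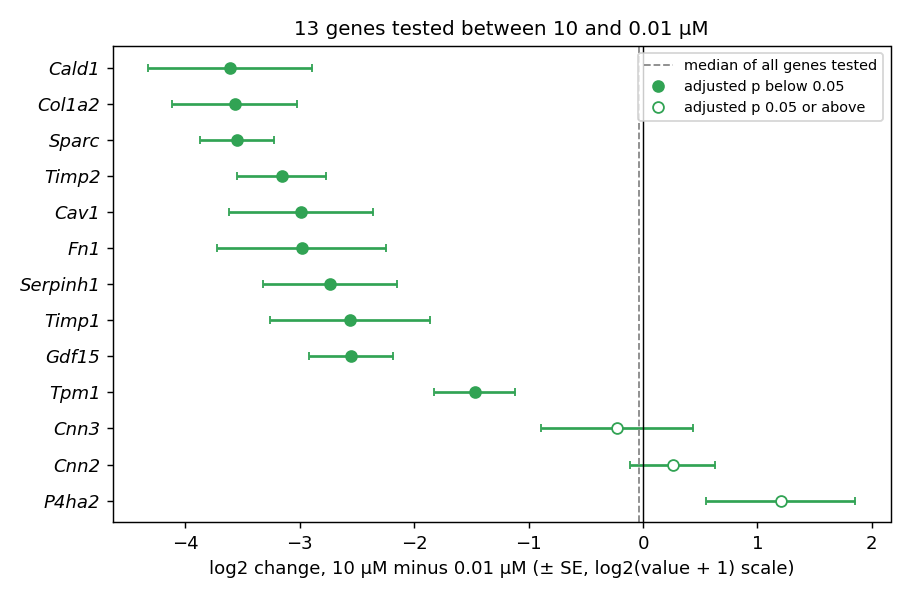
Log2 change from limma, 10 µM minus 0.01 µM, ± SE, for the 13 genes tested (filled points have an adjusted p below 0.05, and the dashed line is the median of all 7264 genes tested, -0.03). The 10 called genes lie between -3.61 and -1.47, and Cnn3, Cnn2 and P4ha2 are not called.

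For the intermediate doses the count of calls depended on the fit. At 0.1 against 0.01 µM, 3 of 13 genes were lower, Sparc, Timp2 and Tpm1, where 3.41% of all genes were called lower. At 1.0 against 0.01 µM, 6 were lower, Col1a2, Gdf15, Serpinh1, Sparc, Timp1 and Timp2, where 2.66% of all genes were called lower. Leaving out any 0.01 µM library, or 0.1 µM replicate A or B, left 1 gene called in the first of these, and in the second 1 to 3 were called without 0.01 µM replicate A, B or C or 1.0 µM replicate B or C. Fits with edgeR, DESeq2, the replicate block and the 4 dose groups alone each called 11 of the 13 genes against 0.01 µM, at every higher dose. Of these 11, 10 were lower and P4ha2 was higher. With array weights 12, 12 and 11 were called at 0.1, 1.0 and 10 µM, again 10 lower. These settings also called more of all genes lower, 923, 843 and 1403 of 7264 with edgeR and 671, 628 and 1082 with DESeq2. The replicate block called 780, 647 and 990 of 5897 lower, and the dose groups alone 850, 698 and 1042. Array weights called 1258, 1203 and 1908 of 7264 lower. A smaller effect at the intermediate doses is thus not shown by the counts of the 13 genes. Their median log2 change against 0.01 µM in the limma fit was -1.58 at 0.1 µM, -2.13 at 1.0 µM and -2.74 at 10 µM. Over all genes tested it was -0.05, -0.08 and -0.03. The difference between these medians was not tested. Between 10 and 0.1 µM, limma called 0 of 13 genes, and 5 had an unadjusted p below 0.05, all lower at 10 µM. On reads recovered from the values, edgeR and DESeq2 called 4 each in that comparison. The replicate block called 5, the dose groups alone 6 and array weights 7, and all these calls were lower at 10 µM. Of all 7264 genes, edgeR called 86 lower there, DESeq2 78 and array weights 223. The replicate block called 78 of 5897 lower and the dose groups alone 107. Numbers in the sample descriptions fall in 2 blocks, 1 with P13.9, naive, 0.01 and 1.0 µM and 1 with 0.1 and 10 µM, and what they stand for is not given. Within these blocks lie the comparison of 1.0 with 0.01 µM and that of 10 with 0.1 µM, with 6 and 0 calls in the 15-library fit and 11 and 5 with the replicate block. The comparisons of 10 and of 0.1 µM with 0.01 µM, with P13.9 and with naive cells cross the blocks, as do the ratios to P13.9 at 0.1 and 10 µM, whereas the ratios at 0.01 and 1.0 µM do not.

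Against naive cells, 9 of 13 genes tested were higher at 0.01 µM and 0 were lower, where 21.7% of all genes tested were called higher. Col1a2, Cnn3 and Timp1 passed the filter through 0.01 µM, which favours a higher call there, and Col1a2 and Timp1 were among the 9. Gdf15 led with a log2 difference of 5.02 ± 0.37 (adjusted p = 2.67e-08) and was at least 9.02-fold higher over a naive floor of 3 reads, followed by Serpinh1 with 3.66 ± 0.59 (adjusted p = 0.000112) and Cald1 with 3.22 ± 0.71 (adjusted p = 0.00169). At 10 µM 3 genes were higher, Cnn2, Gdf15 and P4ha2, where 24.3% of all genes were called higher. Another 3 were lower at 10 µM, Sparc, Timp2 and Tpm1, where 32.8% of all genes were called lower. The shares of the 13 genes called at 10 µM were near those of all genes. The lower call of Timp2 held under all 15 alternatives, but that of Sparc was lost in 6 of 15 (highest adjusted p = 0.451), among them the fit without 10 µM replicate A, and that of Tpm1 in 8 of 15 (highest adjusted p = 0.707), among them those without naive replicate 1 or 2 or 10 µM replicate B. With total-read scaling, array weights, edgeR and DESeq2, 1 gene was lower. Timp2 had 1.56 ± 0.927 at 10 µM and 20.7 ± 7.16 in naive cells, from 18 and 19 reads, with a log2 difference of -3.10 ± 0.39 (adjusted p = 9.04e-06). As a sum, markers of myeloid cells were higher in the naive group, as 7 such genes summed to 0.766 to 9.11 in activated libraries and to 66.4 to 104 in naive ones. Lyz2, Tyrobp, Itgam and Csf1r had the highest naive means of this list. Adgre1 went the other way, with no naive read and 11 reads at 0.01 µM. Cd68 and Cd14 had only 2 naive reads each, against 25 and 7 reads at 0.01 µM. The part of these markers in the naive levels of Timp2, Sparc and Tpm1 was not tested.

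Related genes outside the set were counted in the same way. Of 30 other matrix genes in the table, 11 were tested between 10 and 0.01 µM, and 7 were lower and 0 higher at 10 µM, beside 6.25% of all genes called lower. Mmp14, a membrane metalloproteinase and the one with the highest P13.9 mean, had 1.15 ± 0.992 at 10 µM and 22.1 ± 4.90 at 0.01 µM, with a log2 change of -3.55 ± 0.64 (adjusted p = 0.00331). Col8a1, a network collagen, had 0.286 ± 0.287 at 10 µM and 12.2 ± 4.22 at 0.01 µM. Col8a1 is 1 of 6 of these 11 genes that passed the filter through 0.01 µM, which favours a lower call at 10 µM. Of 9 other contractile and caveolar genes tested, 3 were lower, Cavin1, Cavin3 and Mylk, of which Cavin3 and Mylk passed the filter through 0.01 µM, and 6 were not called. Among fibroblast markers, S100a4 and Twist2 were lower at 10 µM, Twist2 having passed through 0.01 µM, and Vim, at 281 ± 14.6 at 10 µM and 244 ± 46.1 at 0.01 µM, was not called. Of the 12 T cell markers, Lck alone was called higher at 10 µM and none lower. Against P13.9, 9 of 19 other matrix genes were lower at 0.01 µM, beside 14.3% of all genes, and 1 was higher, Ccn2, a matricellular protein also called CTGF, with 87 reads at 0.01 µM and 3 in P13.9 (log2 difference 2.25 ± 0.36, adjusted p = 0.000144). At 10 µM 15 of these 19 were lower than in P13.9 and 0 were higher, beside 26.4% of all genes called lower. Of the 19, 8 passed the filter through P13.9, which favours a lower call at either dose. Ccn2 passed it through 0.01 µM, which favours its higher call there.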

How the data were processed

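The 18 libraries are 3′ mRNA libraries of mouse cells, 3 in each of 6 groups. Per the submitters' processing notes, FastQC 0.11.8, STAR 2.6.1d, HTSeq 0.9.1, DESeq2 and mm10 were used, while annotation, strand setting and DESeq2 version were not stated there. The deposited signal values are gene counts divided by size factors, as the values show: 99.9996% of 284544 values came out as whole reads (tolerance 1e-05), and the 1 exception is in no gene described. The 110 features without a gene name were left out.

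limma 3.58.1 in R 4.3.3 was fitted with a mean-variance trend to log2(value + 1) of genes that reached a value of 5 in 3 or more libraries, which gives fold changes on that scale and understates those of low genes. Comparisons with P13.9 used all 18 libraries and 8179 genes, and the others used the 15 T cell libraries and 7264 genes. The Benjamini-Hochberg adjustment ran over all genes fitted, with calls at adjusted p below 0.05. Recovered reads were also tested with edgeR 4.0.16 and DESeq2 1.42.0. On simulated data, 83 of 100 genes changed 4-fold were recovered for 10 µM over P13.9 among 7048 genes and 73 of 100 for 10 over 0.01 µM among 6456, while of those changed 2-fold 16 and 4 were, with 0 false calls. The simulated counts had a dispersion of 0.05 in every library, and groups differed only in the changed genes, whose means were 10 or more. Recovery among sparser genes, or with the wider spread of naive libraries, was not simulated. Floors of 3 reads over a group and exact 95% intervals cover counting error only. Any gene of the set may be named, and values in every library are given for the 2 of each role with the highest P13.9 mean, for those with the 3 highest and 3 lowest ratios of 0.01 µM to P13.9 among genes with a P13.9 mean from 20 upward, for those called higher in a dose than in P13.9 and for the 4 smallest adjusted p-values of 10 over 0.01 µM. Genes of other lists are named as the 2 with the highest P13.9 mean, or where 5 or fewer were called. The set, the lists and the tests were chosen with earlier results of these data known. Scaling alternatives moved the median log2 difference of all genes for 10 µM over P13.9 to 0.04 with edgeR and 0.02 with total-read scaling, against -0.22 here.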

Additional observations from a re-analysis of the deposited data

How the results depend on the processing

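No called change of a gene reversed. Of 2115 alternative values for 144 called results, 1971 kept their side of the threshold and 144 lost it. Alternatives in which a gene no longer passed the filter are not among these values. Cav2, Loxl1, Pla1a, Plod1 and Tpm2 had 12 alternatives in each comparison with P13.9, where Sparc had 15. They could not be tested when any P13.9 library was left out. Counts of genes called varied more. For 0.01 µM over naive cells the count was 22 without the filter and 17 with all 18 libraries fitted. For 10 over 0.01 µM it was 19 without the filter, 17 with all 18 libraries and 5 to 8 with 1 library left out. For 0.1 over 0.01 µM it was 9 with a pseudocount of 5, 5 without the filter, 6 with quantile scaling, 7 with total-read scaling, 12 with array weights, 11 with edgeR, 11 with DESeq2, 8 with all 18 libraries, 11 with the replicate block, 11 with the dose groups alone and 1 to 3 with 1 library left out. For 1.0 over 0.01 µM it was 10 with a pseudocount of 5, 10 with quantile scaling, 12 with array weights, 11 with edgeR, 11 with DESeq2, 13 with all 18 libraries, 11 with the replicate block, 11 with the dose groups alone and 1 to 5 with 1 library left out. For 10 over 0.1 µM it was 7 with array weights, 4 with edgeR, 4 with DESeq2, 1 with all 18 libraries, 5 with the replicate block and 6 with the dose groups alone. For 0.01 µM over P13.9 it was 8 to 14 with 1 library left out. The fit of the dose groups alone was chosen after seeing the data. Calls over all genes moved with the settings too. For 0.1 over 0.01 µM, 248 of 7264 genes were lower in the main fit, 923 with edgeR and 1258 with array weights. With 1 library left out, 17 to 145 were lower. For 10 over 0.01 µM, 454 were lower in the main fit and 165 to 311 with 1 library left out. Fewer or more genes are tested where the filter or the libraries change, and otherwise the cause was not tested.

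The median ratio at 0.01 µM was 29.4% over genes whose P13.9 mean reached 20, 17.8% over those with no naive read and 31.2% with total-read scaling. As a ratio of sums it was 9.56% at 1.0 µM, 6.32% at 10 µM and 7.78% in naive cells. At 10 µM it was 0.866% over genes with no naive read and 2.95% with total-read scaling, and in naive cells 2.51% over genes whose P13.9 mean reached 20. The labels do not say whether replicate letters pair the samples. Deviations from the group mean correlated at -0.197 to 0.200 between same-letter libraries and at -0.251 to 0.290 between those of different letters. Since such deviations cancel within each group, these ranges cannot show whether a letter marks a shared mouse, culture or day. No paired analysis was possible because P13.9 and naive columns carry numbers and not letters, apart from comparisons among doses.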

Other observations

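Some matrix genes outside the set had reads in naive libraries and few in P13.9, and these were chosen after their values were seen. Bgn, the proteoglycan biglycan, averaged 0.147 in P13.9 and 9.12 in naive cells. Eln, elastin, averaged 0.806 in P13.9 and 9.84 in naive cells, and Nid2, a basement membrane nidogen, averaged 0.295 in P13.9 and 10.0 in naive cells. Lum, lumican, had no read in P13.9 and averaged 3.63 in naive cells. Each naive mean rests on few reads, since a single read was worth 2.17 to 6.55 there.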
